A study of Mus musculus with 6 samples.

Results

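The Krüppel-like factors (KLFs) are transcription factors that bind CACCC and GC-rich boxes in promoters through a conserved set of zinc fingers at the carboxyl end. Their amino-terminal parts differ: some members activate transcription through acetyltransferases, one branch binds the corepressor CtBP, and another recruits the Sin3 repressor complex. In blood cells the family acts in quiescence, trafficking and terminal differentiation, and several members are induced within minutes to hours by hormones, cytokines or serum. The members described here were chosen by name as the rows of 10 Klf genes, Klf2, Klf3, Klf4, Klf6, Klf7, Klf9, Klf10, Klf11, Klf13 and Klf16, among the 36083 genes of the deposited table. The erythroid factor Klf1 was left out of the members and is given beside them with the other Klf genes.

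Expression was measured by RNA-seq in blast crisis chronic myeloid leukemia (bcCML) cells from mouse. KLS cells (Kit+ Lin- Sca1+ progenitors) of WT or Sdc1-/- mice on the B6 background received the oncogenes BCR-ABL and NUP98-HOXA9 by infection, and double-positive cells were given, by the labels, to NSG recipients. The methods of the study name irradiated CD45.1 mice as hosts of primary bcCML in general, and which host these libraries come from could not be settled. The lineage-negative (Lin-) leukemic cells were then sorted from the spleen, and all recipients of both groups were killed at one time point. Both groups therefore carried both oncogenes and share 1 recipient strain in the labels, and they differed by label only in donor genotype, WT or Sdc1 KO, with 3 libraries each. The Sdc1-/- mice carry an allele altered in the part that codes for the signal peptide, and it is surface syndecan-1 that they lack. The labels give no age or sex. A legend of the study describes the 3 WT libraries as technical replicates, so the SDs and p-values below measure only the spread between libraries, which may be technical.

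The deposited unit is TPM, a transcript abundance that accounts for transcript length, after a rescaling between libraries, and is here called the level. Sums ran from 1048875 to 1058263 in WT and from 944973 to 951814 in Sdc1 KO libraries, and the number of reads behind them is unknown. Groups were compared with limma on log2(level + 1) in the genes whose mean over the 6 libraries reached 1, 12155 in all, and p-values were adjusted over all of these (Benjamini-Hochberg). Fold changes on that scale understate the change of low genes. At an adjusted p of 0.05, 60.7% of these genes were called, 31.3% as lower and 29.3% as higher in Sdc1 KO, so a call by itself is common here. Setting the libraries to one common sum of 1000000 moved the lower share of the calls from 51.7% to 31.0%, and the log2 fold changes of all genes from a median of -0.01 to one of 0.12.

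The targeted gene did not fall. Sdc1 had levels of 1.75, 1.21 and 1.51 in the WT libraries and of 3.85, 3.80 and 4.12 in the Sdc1 KO libraries, a log2 fold change of 0.99 (SE 0.093, limma adjusted p = 1.2e-04). One level per gene cannot tell a transcript of the disrupted allele from an intact one, so the groups are named by their labels. The 4 Y-linked genes in the table summed to 0.276 to 0.308 in the WT libraries and to 68.1 to 78.4 in the Sdc1 KO libraries. Donor genotype and the sex of the cells thus cannot be told apart in any comparison below. Genes of the progenitor list fixed for this tissue were present in both groups, among them Kit, Cd34, Mpo and Elane, while markers of T and B cells ranged from group means below 0.1 (Cd3e, Cd8a, Ms4a1) to 1.09 and 1.65 for Trac and 2.29 and 2.12 for Cd79b, in WT and Sdc1 KO cells.

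Of the 10 Klf genes, 9 had a mean of at least 1 and were tested, and each of these 9 had a mean above 1 in both groups. In the Sdc1 KO libraries 7 of the 9 were lower (77.8%, where 31.3% of all tested genes were), 1 was higher (29.3% of all tested genes were), and Klf10 was not called. The median log2 fold change of the 9 was -0.44, beside -0.01 for all tested genes. Counting libraries alone, the groups did not overlap in 7 of the tested members that were lower and in 1 that was higher, where this held for 34.2% and 32.6% of all tested genes. The untested member, Klf4, was also lower without overlap. The falls were graded, from 33.7% of the WT level for Klf2 to 83.3% for Klf11, and with 3 libraries a group the exact two-sided permutation test of a single gene cannot go below p = 0.1, the value of each member whose groups did not overlap.

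**Figure D1:**
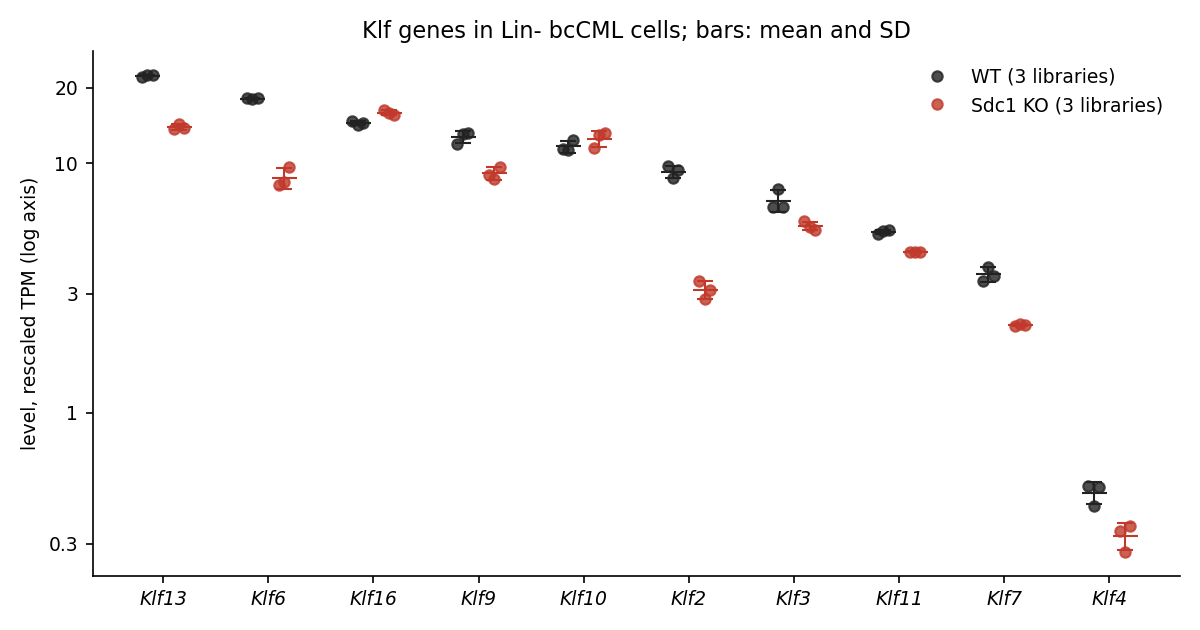
Level of each Klf gene (rescaled TPM, log axis) in the 3 WT (black) and 3 Sdc1 KO (red) libraries, with the mean and SD of each group as bars. Klf2 and Klf6 show the widest gaps, Klf10 overlaps between the groups, and Klf16 lies higher in the Sdc1 KO libraries.

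Among the members, Klf13 had the highest level in WT cells, 22.4 ± 0.191 (SD, n = 3). It was followed by Klf6, Klf16, Klf9, Klf10, Klf2, Klf3, Klf11, Klf7 and Klf4. Neighbours in this order were separated in all libraries, with the exception of Klf9 and Klf10. In Sdc1 KO cells the order was Klf16, Klf13, Klf10, Klf9, Klf6, Klf3, Klf11, Klf2, Klf7 and Klf4, and the neighbours that overlapped were Klf9 and Klf6. Klf6 moved from the second to the fifth place and Klf2 from the sixth to the eighth. Klf16, the third in WT cells, led in Sdc1 KO cells. These are levels per length, compared as a description with no test.

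Klf2, Klf4, Klf6 and Klf7 belong to the branch of activators. Klf2 holds T cells and monocytes in quiescence and answers laminar flow in endothelium. Its levels were 9.70, 8.70 and 9.35 in the WT libraries and 3.37, 2.86 and 3.12 in the Sdc1 KO libraries. All Sdc1 KO libraries thus lay below 4 and all WT libraries above 8, with means of 9.25 ± 0.507 and 3.12 ± 0.256 (SD, n = 3 each). The log2 fold change was -1.32 (SE 0.068, 95% interval -1.48 to -1.16, limma adjusted p = 8.2e-06), rank 182 among the falls of the 12155 genes. In bulk cells, fewer cells that express a gene and less RNA of it in each cell cannot be told apart, and this holds for every member.

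Klf2 (ENSMUSG00000055148) lies at chr8:72319033-72321656 on the plus strand of GRCm38 and has 3 exons and 1 transcript in GENCODE M21. Its promoter is known for a MEF2 element through which the kinase ERK5 induces the gene. In RefSeq's promoter table (GRCm38.p6, windows from 250 bases before to 50 after the start) the Klf2 window held 1 match to the MEF2 element, a pattern found on either strand in 0.557% of all 32851 windows and in 1 of the 8 member windows. It also held a match to CACCC, read as GGGTG on this strand, the box that KLFs themselves bind. Both stretches are shown, with the matched bases in capitals, because Klf2 is the member with the deepest fall. The window also held 2 matches to the GC box GGGCGG and 1 to the cAMP response element core TGACG, not shown.
Klf2 MEF2 element, chr8:72318934-72318963, plus strand: tataccgcggCTAAATTTAGgctgagcccg
Klf2 CACCC box, chr8:72319031-72319060, plus strand: cctataaggcctGGGTGggccgggccacag
The matches shown begin 118 and 19 bases before the RefSeq start. That start lies downstream of the GENCODE start given above, so the CACCC match lies inside the GENCODE gene. A match is a description of the letters and was not tested as a binding site.

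Klf6 is an early-response factor of activated myeloid and stromal cells. Its levels were 18.19, 18.03 and 18.15 in the WT libraries and 8.15, 8.38 and 9.69 in the Sdc1 KO libraries. The WT libraries were nearly equal, while 1 Sdc1 KO library stood above the other 2 and still far below WT. The means were 18.1 ± 0.0837 and 8.74 ± 0.827 (SD, n = 3 each), so Klf6 stood at 48.2% of its WT level. Its log2 fold change was -0.98 (SE 0.064, 95% interval -1.13 to -0.83, limma adjusted p = 2.2e-05). The gene (ENSMUSG00000000078) lies at chr13:5861482-5870394 on the plus strand. In absolute terms this was the widest drop of the family, and Klf6 went from the place next below Klf13 to a level that overlapped Klf9.

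Klf7, the member known from neurons and adipose tissue, had levels of 3.38, 3.85 and 3.55 in the WT libraries and of 2.22, 2.27 and 2.26 in the Sdc1 KO libraries. The 3 Sdc1 KO libraries lay within 0.1 of each other and below all WT libraries. The log2 fold change was -0.50 (SE 0.064, 95% interval -0.65 to -0.35, limma adjusted p = 5.2e-04). Klf7 (ENSMUSG00000025959, chr1:64029447-64122282, minus strand) is overlapped on the opposite strand by Gm26649 and Gm13748, and whether strand was used in assigning reads is not given in the sources used here. Klf4, a pluripotency factor that also drives monocyte differentiation, had levels of 0.511, 0.426 and 0.504 in the WT libraries and of 0.337, 0.278 and 0.353 in the Sdc1 KO libraries. These lay under the minimum mean, and the fit without a minimum gave Klf4 a log2 difference of -0.16 (limma adjusted p = 0.026). Klf6, Klf2 and Klf7 thus held nearly all of the summed level of these activators, and all 3 fell. Summed, the 4 activators had levels of 31.8, 31.0 and 31.6 in the WT libraries and of 14.1, 13.8 and 15.4 in the Sdc1 KO libraries, 45.9% of WT.

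Klf3, a repressor that works through CtBP, had levels of 6.65, 7.90 and 6.65 in the WT libraries and of 5.85, 5.57 and 5.42 in the Sdc1 KO libraries. The groups did not overlap, but the spread of the WT libraries, an SD of 0.719, was wide beside the gap. The mean went from 7.06 to 5.61, 79.4% of WT, with a log2 fold change of -0.28 (SE 0.073, 95% interval -0.46 to -0.11, limma adjusted p = 0.013). With every library set to one sum the log2 fold change was -0.16 and the call was lost (limma adjusted p = 0.10). Klf3 (ENSMUSG00000029178, chr5:64803388-64832901, plus strand) has a longer and more varied gene model than Klf2, with 9 transcripts, and Gm20033 runs on its opposite strand. Its promoter window held 5 CACCC matches on the 2 strands, the most of any member. For comparison with the single match of Klf2 and that of Klf13, 1 of them is shown, with the named match of each stretch in capitals. The Klf3 stretch lies inside the GENCODE gene and also holds another of the 5 matches, left in lower case.
Klf3 CACCC box, chr5:64803398-64803427, plus strand: ctccacccaagtGGGTGgggacccctccca
Klf13 CACCC box, chr7:63938920-63938949, minus strand: cccggccccgccCACCCccggggccggtcc

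The remaining members, Klf9, Klf10, Klf11, Klf13 and Klf16, carry a domain that binds Sin3. They did not all move in the same direction. Klf13, which in T cells controls the chemokine gene Ccl5, was the most abundant of the 10 members in the WT libraries. It had levels of 22.2, 22.5 and 22.6 in the WT libraries and of 13.7, 14.3 and 13.8 in the Sdc1 KO libraries. The 2 groups were tight and far apart. The log2 fold change was -0.65 (SE 0.036, 95% interval -0.73 to -0.56, limma adjusted p = 1.1e-05), which put Klf13 at 62.2% of WT. Klf13 (ENSMUSG00000052040, chr7:63886351-63938915, minus strand) is overlapped on the opposite strand by E030018B13Rik and Gm27252.

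Klf9, a target of the glucocorticoid and thyroid hormone receptors, had levels of 11.98, 13.13 and 13.18 in the WT libraries and of 8.99, 8.68 and 9.68 in the Sdc1 KO libraries. No Sdc1 KO library reached the lowest WT library. The means of 12.8 ± 0.681 and 9.12 ± 0.515 (SD, n = 3 each) gave a log2 fold change of -0.44 (SE 0.059, 95% interval -0.58 to -0.31, limma adjusted p = 5.8e-04). Klf9 (ENSMUSG00000033863) lies at chr19:23141226-23168134 on the plus strand.

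Klf10 and Klf11 were first described as early genes of TGF-beta. Klf10 (ENSMUSG00000037465, chr15:38291463-38300706, minus strand) had levels of 11.4, 11.3 and 12.4 in the WT libraries and of 11.5, 12.9 and 13.2 in the Sdc1 KO libraries. The groups overlapped, and the log2 fold change of 0.09 had a 95% interval from -0.06 to 0.25 (limma adjusted p = 0.25). With every library set to one sum Klf10 was called higher (log2 fold change 0.23, limma adjusted p = 0.020), beside a median of 0.12 for all genes. Klf11 (ENSMUSG00000020653, chr12:24651274-24662789, plus strand) had levels of 5.198, 5.338 and 5.389 in the WT libraries and of 4.43, 4.43 and 4.41 in the Sdc1 KO libraries. This was a small gap with little spread, 83.3% of WT, and the log2 fold change was -0.22 (SE 0.048, 95% interval -0.33 to -0.10, limma adjusted p = 0.0063). With every library set to one sum its log2 fold change was -0.09 and not called (limma adjusted p = 0.13).

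Klf16, known as a regulator of dopamine receptor genes, was the member called higher. Klf16 (ENSMUSG00000035397, chr10:80567124-80577321, minus strand) had levels of 14.8, 14.3 and 14.5 in the WT libraries and of 16.3, 15.8 and 15.6 in the Sdc1 KO libraries. The groups did not overlap, and the mean was 110% of WT. The log2 fold change was 0.13 (SE 0.038, 95% interval 0.03 to 0.22, limma adjusted p = 0.025). The call rested on the full set of libraries: leaving out WT 2, WT 3, Sdc1 KO 1 or Sdc1 KO 2 gave adjusted p-values of 0.065 to 0.070 from limma, and quantile normalization one of 0.053. Summed, the 5 Sin3-binding members had levels of 65.5, 66.5 and 68.0 in the WT libraries and of 54.9, 56.1 and 56.8 in the Sdc1 KO libraries, 83.9% of WT.

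**Figure D2:**
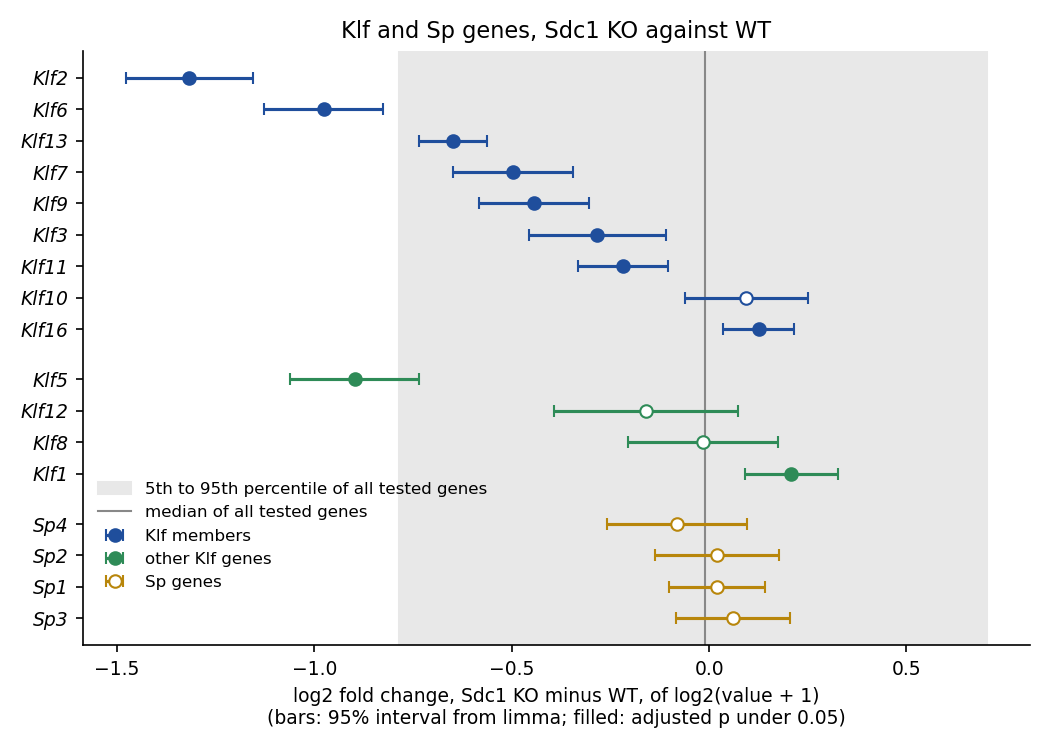
Log2 fold changes (Sdc1 KO minus WT, of log2(level + 1)) with 95% intervals from limma for the tested Klf members (blue), other Klf genes (green) and Sp genes (gold), where filled points have an adjusted p under 0.05. Klf2 (-1.32) and Klf6 (-0.98) lie outside the grey band, the 5th to 95th percentile of all tested genes (-0.78 to 0.70), as does Klf5 (-0.90), and the other points lie within it.

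The summed level of the 10 Klf genes was 104, 105 and 106 in the WT libraries and 74.8, 75.5 and 77.6 in the Sdc1 KO libraries. The groups were well apart, at 105 ± 1.17 and 76.0 ± 1.46 (SD, n = 3 each). The members' sum thus stood at 72.2% of WT, or at 80.1% with every library set to one sum. The makeup changed with the total. Klf2 took 8.80% of the summed level in WT and 4.10% in Sdc1 KO cells, and Klf6 took 17.2% and 11.5%. The share of Klf16 was 13.79% and 20.95%, and that of Klf10 was 11.1% and 16.5%. Klf9 kept about the same share, 12.13% and 11.99%. Shares of one sum are bound to each other, and no test was made of them.

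**Figure D3:**
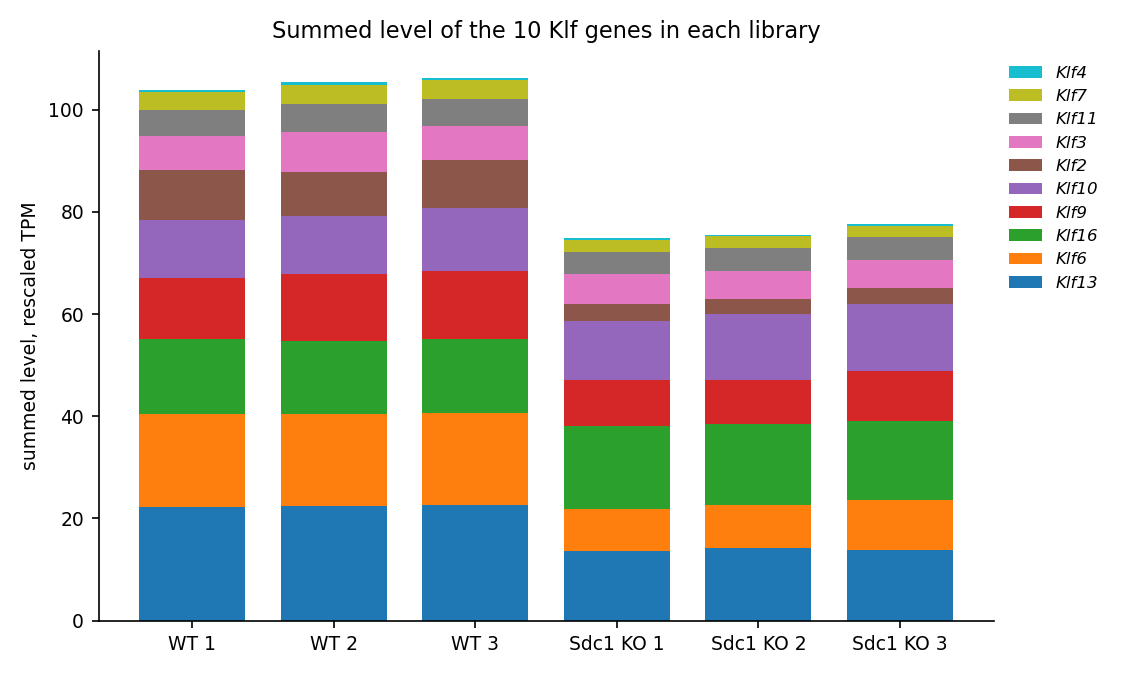
Summed level (rescaled TPM) of the 10 Klf genes in each of the 6 libraries, as stacked bars with 1 colour a gene. The WT bars end at 104 to 106 and the Sdc1 KO bars at 74.8 to 77.6, with the Klf6, Klf13 and Klf2 blocks smaller and the Klf16 and Klf10 blocks about as tall as in WT.

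The directions of the 9 tested members held in every alternative fit, in which the pseudocount, the minimum mean, the scaling, the variance model, the libraries used or the replicate number were changed. Klf2, Klf6, Klf7, Klf9 and Klf13 were called lower in each fit in which they were tested. Across these fits the log2 fold change of Klf2 ran from -1.54 to -1.19 and that of Klf6 from -1.05 to -0.84.

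**Figure D4:**
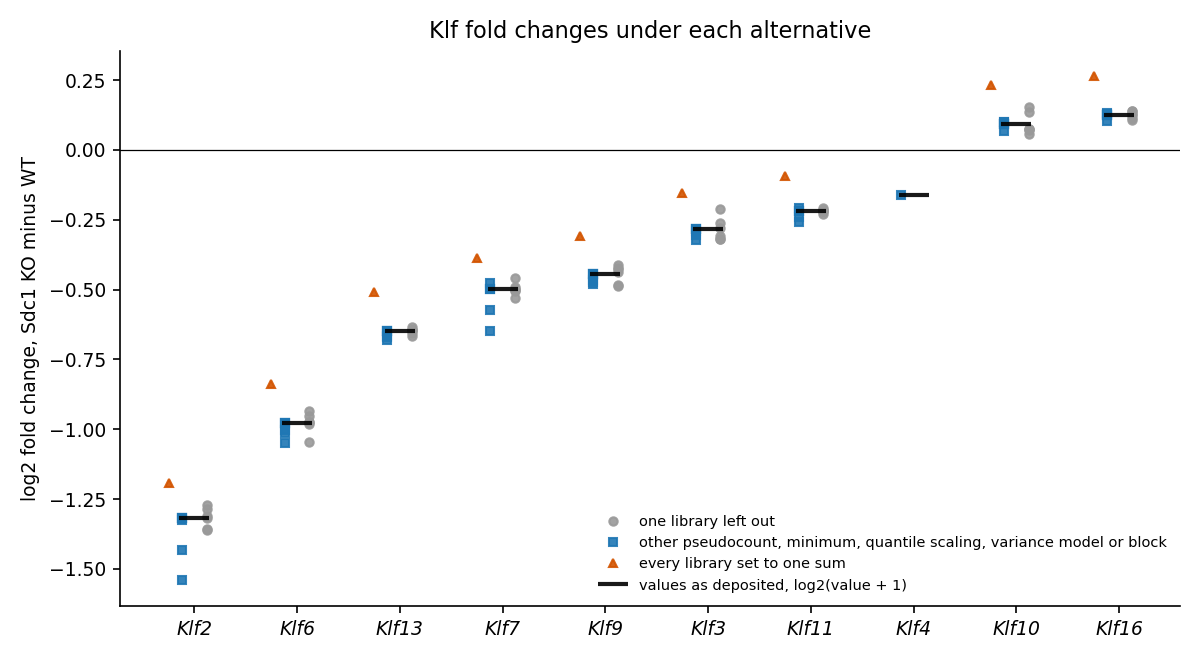
Log2 fold change (Sdc1 KO minus WT) of each Klf gene as deposited (black bars) and under each alternative: one library left out (grey), other settings (blue) and every library set to one sum (orange). No point crosses 0, and setting every library to one sum moved each tested gene upwards, for Klf2 from -1.32 to -1.19 and for Klf16 from 0.13 to 0.26.

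Of the 7 Klf genes outside the members, 4 were tested. Klf1, the erythroid activator of beta-globin, went from 49.1 ± 3.22 to 56.8 ± 1.18 (SD, n = 3 each), a log2 fold change of 0.21 (limma adjusted p = 0.0095), and so stood above every member in both groups. Klf5, a factor of gut epithelium and granulocyte differentiation, fell from 4.74 ± 0.132 to 2.08 ± 0.203 (SD, n = 3 each), a log2 fold change of -0.90 (limma adjusted p = 4.6e-05). The CtBP-binding Klf8 (adjusted p = 0.88) and Klf12 (limma adjusted p = 0.20) were not called, with means of 2.39 and 2.35 and of 3.34 and 2.87. Klf14, Klf15 and Klf17 had means below 0.01 in both groups. None of the 4 tested Sp factors, the relatives that bind the same GC boxes, was called by limma, and 0 of them had an unadjusted p under 0.05. Sp1 had means of 21.6 and 21.9 and Sp3 of 22.6 and 23.6, with adjusted p-values of 0.38 to 0.82 over the 4 genes, although Sp1 and Sp3 were called higher with every library set to one sum.

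The partners of the family were given by a list of 9 cofactors, of which 2 were lower and 4 higher. Sin3b, a scaffold that the Sin3-binding members recruit, fell from 170 to 113 (log2 fold change -0.59, limma adjusted p = 1.8e-05). Its relative Sin3a rose (log2 fold change 0.31, limma adjusted p = 0.0025). Ctbp1, the partner of Klf3, fell from 150 to 126 (log2 fold change -0.25, limma adjusted p = 0.0083), a call lost with every library set to one sum. Hdac2, a deacetylase of the Sin3 complex, rose from 58.7 to 87.6 (log2 fold change 0.57, limma adjusted p = 3.5e-05). Of the 3 ubiquitin ligases that act on KLF proteins, Smurf1 fell (log2 fold change -0.52, limma adjusted p = 0.0010), Fbxw7 rose (0.32, limma adjusted p = 0.0029) and Wwp1 was not called (-0.13, limma adjusted p = 0.11).

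Upstream of Klf2, the MEKK, MEK5, ERK5 and MEF2 cascade and the FOXO factors were represented by 8 tested genes, of which 2 were lower and 1 higher. The kinase Map3k3 fell from 7.74 to 5.28 (log2 fold change -0.48, limma adjusted p = 2.4e-04). Map2k5, which encodes MEK5, was lower by a log2 fold change of -0.12 (limma adjusted p = 0.020), but it was 0.02 and not called with every library set to one sum, and it lost its call without WT 1, WT 3 or Sdc1 KO 2. Mapk7, which encodes ERK5, was higher (0.22, limma adjusted p = 0.030), a call lost without WT 2, WT 3, Sdc1 KO 2 or Sdc1 KO 3. Mef2c, the most abundant MEF2 gene, had means of 19.3 and 20.7 (limma adjusted p = 0.14), and it was called higher with every library set to one sum (0.24, limma adjusted p = 0.0050). The other MEF2 genes tested, named after their values were seen, were also not called, with limma adjusted p-values of 0.052 for Mef2a and 0.13 for Mef2d. Under one common sum, 1 gene of the list was lower and 4 were higher. Of the list, 1 gene was lower without WT 3 or Sdc1 KO 2, and 2 were higher without WT 1.

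Of the 4 listed targets of Klf2, S1pr1 and Itgb7 were tested and both were lower. Klf2 is known to maintain S1pr1 in T cells, and whether Klf2 acts on either gene in these cells was not tested. S1pr1, a receptor for egress into blood, fell from 3.18 to 2.02 (log2 fold change -0.47, limma adjusted p = 7.1e-04). Itgb7 went from 101 to 61.0 (log2 fold change -0.72, limma adjusted p = 4.2e-05), and it was among the genes the study itself took up from these libraries. The endothelial targets Thbd and Nos3 had means below 1 and were not tested. Thbd was higher in Sdc1 KO without overlap, with means of 0.555 in WT and 0.679 in Sdc1 KO cells. Nos3 overlapped between the groups, with means of 0.030 and 0.017.

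Signals known to induce members were described by their own lists. Of the 10 tested genes of the glucocorticoid response, the hormone response that includes Klf9, 9 were lower and 1 higher. The median of their log2 fold changes was -0.50. Dusp1, a phosphatase of MAP kinases, had the deepest fall, from 11.2 to 3.12 (log2 fold change -1.56, limma adjusted p = 2.0e-06). The most abundant, the metallothioneins Mt1 and Mt2, had log2 fold changes of -0.26 and 0.18. The fall of Mt1 was not called with every library set to one sum (limma adjusted p = 0.059), and the rise of Mt2 was not called without WT 1, WT 2 or Sdc1 KO 2. In this list 6 genes were lower with every library set to one sum. Fkbp5 and Tsc22d3, named after their values were seen because they are widely used readouts of the receptor, had log2 fold changes of -0.78 and -0.68. Klf9, at -0.44, was close to the median of this list and was itself the median of the 9 tested members. A part of this hormone response in the fall of Klf9 was not tested.

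Of the 11 tested genes of the TGF-beta pathway, which induces Klf10 and Klf11, 4 were lower and 4 higher. Tgfb1, the ligand, rose from 159 to 200 (log2 fold change 0.33, limma adjusted p = 7.9e-04). The signal transducer Smad2 fell (log2 fold change -0.49) while Smad3 rose (0.64), and the receptor Tgfbr2 fell from 6.59 to 3.89 (log2 fold change -0.64, limma adjusted p = 1.0e-04). The number of genes called higher was 2 without WT 1, Sdc1 KO 2 or Sdc1 KO 3. Of the 11 tested immediate early genes, the serum-induced class in which Klf4, Klf6 and Klf10 are also counted, 7 were lower and 1 higher, with a median of -0.30. Among the lower genes, Fos (means 1.61 and 0.849), named after its values were seen, reached the minimum mean only through the WT libraries. The deepest fall of this list was that of Dusp1 (-1.56), which is also counted in the glucocorticoid list. Junb fell from 21.2 to 17.1 (log2 fold change -0.30, limma adjusted p = 0.0042), a call lost with every library set to one sum (limma adjusted p = 0.052). Ier2, the most abundant of them, had means of 33.9 and 33.5 (limma adjusted p = 0.80). The heat shock gene Hspa1b was higher (0.43), and the genes of the list called higher numbered 2 without Sdc1 KO 2 and 4 with every library set to one sum.

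**Figure D5:**
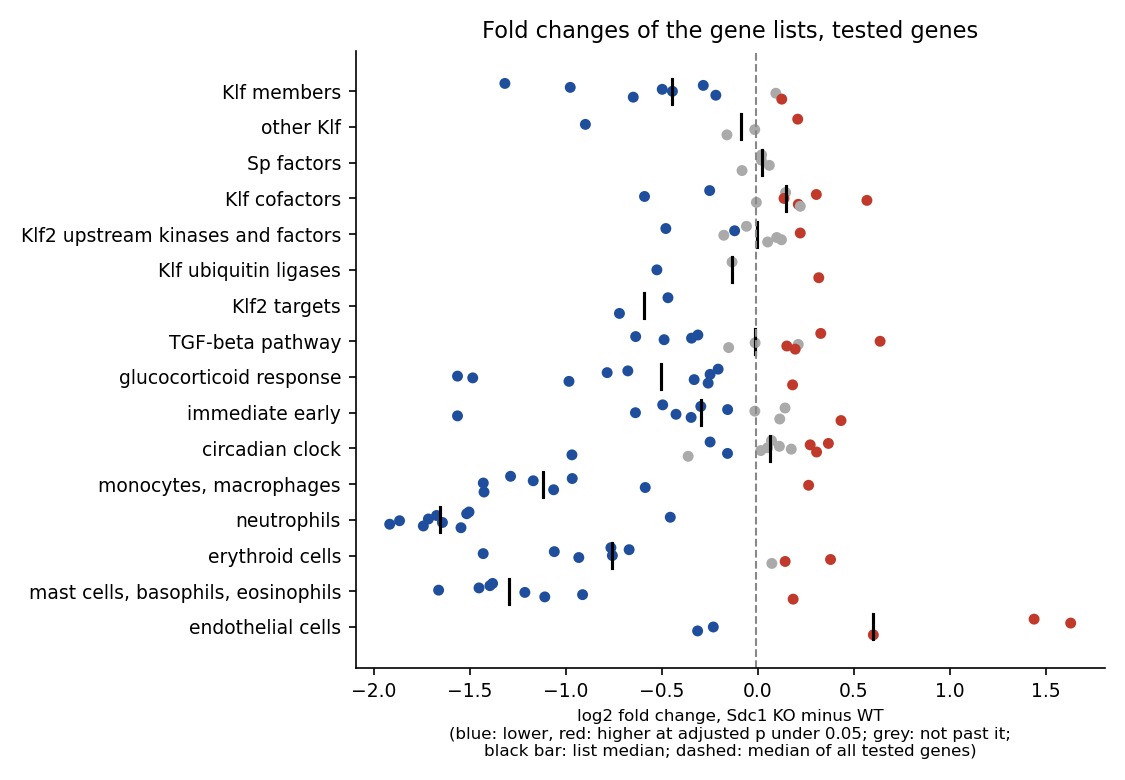
Log2 fold changes (Sdc1 KO minus WT) of the tested genes of each list, 1 point a gene, with the list median as a black bar and the median of all tested genes (-0.01) as a dashed line. The medians of the Klf members (-0.44) and the glucocorticoid list (-0.50) lie left of that line, and those of the neutrophil (-1.66) and monocyte (-1.12) lists lie farther left.

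Markers of other blood cells moved with the same groups. All 10 neutrophil genes were lower, and their summed level was 13158 to 14096 in the WT libraries and 4727 to 4865 in the Sdc1 KO libraries, 35.4% of WT, although the sort removed cells with Gr1 or CD11b. Of 8 tested monocyte and macrophage genes, the cells in which Klf2, Klf4 and Klf6 are well known, 7 were lower and 1 was higher, with sums of 570 to 591 and of 255 to 264. Of these, Cd14 (means 3.56 and 0.870) and Csf1r (1.95 and 0.512), named after their values were seen, reached the minimum mean only through the WT libraries. Of 8 mast cell, basophil and eosinophil genes 7 were lower and 1, Kit, was higher, with sums of 1094 to 1122 and of 477 to 481. Fcer1a (means 2.51 and 0.511) likewise reached the minimum mean only through the WT libraries. The call of Kit was lost without WT 1, WT 3 or Sdc1 KO 2. Of 9 erythroid genes 6 were lower and 2 higher, with sums of 9554 to 10257 and of 5341 to 5743, while Klf1 rose. The erythroid genes called higher numbered 1 when any library other than WT 3 was left out. Most of the monocyte sum was Ly6c2, and without it, a choice made after its values were seen, the sums were 88.1 to 91.4 and 43.1 to 44.4. The part of these cells in the Klf values was not tested.

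Lymphocytes and endothelium, where Klf2 is also high, were represented by few detected genes. Of the 10 T and NK cell genes, 3 were tested and 1, Gzma, was lower, with means of 1.60 in WT and 0.405 in Sdc1 KO cells. Without WT 1, WT 2 or WT 3 the mean of Gzma was under the minimum, so it was not tested. It was called lower in each of the 10 alternative fits in which it was tested. Another gene was higher without WT 3 or with every library set to one sum. In this list 5 genes were below 0.1 in every library, and the sum of the list was 9.70 to 11.3 in WT and 8.93 to 9.64 in Sdc1 KO libraries. Of the 8 B cell genes 1 was tested and not called, and 4 were below 0.1 in every library. Of the 9 endothelial genes 5 were tested, 2 lower and 3 higher. Their sum was 48.4 to 52.2 in WT and 60.3 to 60.6 in Sdc1 KO libraries, with the defining genes Cdh5 and Kdr below 0.1 in all 6. The largest rise in level was that of Vwf, which platelets also express. Of the other tested genes, Tie1 rose from 0.935 to 4.24 and Plvap from 4.43 to 7.23. Eng fell from 25.6 to 20.4 and Pecam1 from 15.3 to 12.9, and in the sum these rises and falls offset each other. Without Vwf, a choice made after its values were seen, the sum was 44.8 to 47.6 in WT and 45.1 to 46.2 in Sdc1 KO libraries. Only 1 endothelial gene was lower with every library set to one sum.

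Over the 8 members with a promoter window in the RefSeq table, motif matches were counted on both strands and set beside all 32851 windows of the same length. CACCC was in 5 of 8 member windows and in 57.5% of all windows. The GC box GGGCGG was in 7 of 8 and in 35.7% of all, but member windows held 58.3% to 77.7% G and C, where the median of all windows was 52.7%. The full cAMP response element TGACGTCA was in none of the 8 and in 1.79% of all, and its core TGACG, which the full element contains, was in 5 of 8 and in 20.8% of all. The serum response element (1.63% of all windows) and the glucocorticoid response core ACANNNTGT (6.85% of all) were in none of the 8. CCAAT was in 4 of 8 and in 37.4% of all, with 4 matches in the Klf6 window. No match says only that these letters are not in the window. Klf10 and Klf16 have no window in the table.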

How the data were processed

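RNA-seq was measured in Lin- bcCML cells, 3 WT and 3 Sdc1 KO libraries, grouped by their labels. The authors deposited a signal per gene and library, kallisto TPM summed per gene and rescaled between libraries. The processing notes name sleuth 0.30.0 and the build mm10, and the kallisto version is not given in the sources used here. Depth is unknown, so no interval from counting error is given. A second table, holding the authors' own comparison by sleuth (p-values, q-values, effect sizes and variances), was not used.

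The Klf members and all gene lists were chosen with earlier results of these data known. Of 36083 genes, 11369 were at 0 in every library and 35454 identifiers matched GENCODE M21, which gave coordinates. Within groups, log2 values correlated at 0.997 to 0.998 across genes, and 0 pairs of libraries were identical. Genes whose mean reached 1, 12155 in all, were fitted on log2(level + 1) with limma 3.58.1 under R 4.3.3. The model held the group alone, eBayes used a variance trend, and calls were made at a Benjamini-Hochberg adjusted p of 0.05. In all 15 fits were made. The named genes were all members, the other Klf and Sp genes, Sdc1, the Y-linked genes, and of each other list the 2 with the highest mean and those with the largest rise and fall, where the text names them. Some list genes are not reported here and were left out of the lists. Tables and plots were made in Python 3.11.15 with pandas 2.3.3, numpy 2.4.6, scipy 1.17.1 and matplotlib 3.10.9.

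The fit was tested on simulated data for this comparison, in which 200 of 12155 genes were given a shift of 1 on the log2 scale, and 190 (95%) were recovered and 12 unchanged genes were called. With a shift of 0.5, 147 (73.5%) were recovered and 3 unchanged genes were called, and with no change 0 genes were called. The simulations drew noise independently for each gene and changed few genes, while 60.7% of the tested genes were called in the real data. Their counts therefore do not measure recovery or false calls in the real comparison, where the spread between libraries may be technical.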

Additional observations from a re-analysis of the deposited data

How the results depend on the processing

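The scaling between libraries was the choice that moved most. After all libraries were brought to a common sum of 1000000, 2380 genes were called lower in place of 3810, 2 members were called higher in place of 1, 5 members lower in place of 7, and the summed Klf level stood at 80.1% of WT in place of 72.2%. With quantile normalization 0 members were called higher at an adjusted p of 0.05. Leaving out 1 library at a time gave 0 to 1 members called higher, 7 called lower in each fit, and 3380 to 3608 genes called lower. The deposited sums were 944973 to 951814 in Sdc1 KO and 1048875 to 1058263 in WT libraries. One common sum therefore raises every Sdc1 KO level beside WT by arithmetic. Why the deposited sums differ was not tested, nor was the cause of the other shifts. Read depth, which is unknown, limits the low member Klf4. Of 125 member results under an alternative, 117 were counted as unchanged, 7 lost the call, 1 gained it and 0 changed direction. For the tested members, unchanged means the same direction and side of the threshold. The 1 result of Klf4 is among the 117 but could not differ, as Klf4 was tested only without a minimum mean.

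A few genes outside the members changed sign, all with log2 fold changes near 0. With a sum of 1000000 Klf8 was 0.089, Sp4 0.029, Map2k5 0.021, Ier2 0.13 (limma adjusted p = 0.040), Klrb1c 0.0074 and Cd79b 0.024. With quantile normalization Klf8 was 0.0072, Sp1 -0.0036 and Ier2 0.0044. With 1 library left out, the ranges were -0.076 to 0.023 for Klf8, -0.015 to 0.058 for Sp1, -0.030 to 0.081 for Sp2, -0.043 to 0.023 for Ier2 and -0.14 to 0.0023 for Cd79b.

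Libraries that share a number share only that number: their deviations from the group means correlated at 0.15, -0.0083 and 0.018, and not every library correlated best with its own number. With the replicate number as a block, 7624 genes were called in place of 7374, 3971 of them lower, with 7 members lower and 1 higher.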

Other observations

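The circadian clock, of which Klf9 and Klf10 are known outputs, was covered by 12 tested genes, of which 3 were lower, 3 higher and 6 not called, with a median log2 fold change of 0.06 beside -0.01 for all tested genes. Under one common sum 1 was lower and 6 higher, with a minimum mean of 5 none was higher, and without Sdc1 KO 2 there was 1 higher. Nfil3, a repressor of clock outputs that also acts in myeloid and lymphoid cells, fell from 10.3 ± 0.262 to 4.79 ± 0.190 (SD, n = 3 each), a log2 fold change of -0.97 (limma adjusted p = 7.8e-06). Per1, the most abundant, fell from 17.99 to 14.98 (log2 fold change -0.25, limma adjusted p = 0.0027), while Per2 rose from 2.0 to 2.9 (0.37, limma adjusted p = 0.0023). Tef, an output factor, fell by 0.16 on the log2 scale. With every library set to one sum the calls of Per1 (-0.11, limma adjusted p = 0.073) and Tef (-0.020, limma adjusted p = 0.69) were lost. Per1 is also a member of the glucocorticoid list.

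Progenitor genes of the leukemia did not move as one group. Of 10 listed genes 6 were lower and 4 higher, and 2 were higher without WT 3 or Sdc1 KO 2. Mpo, the granule peroxidase, fell from 322 ± 11.1 to 245 ± 4.18 (SD, n = 3 each), and Meis1, the partner of Hoxa9 in self-renewal, rose from 13.1 ± 0.353 to 28.6 ± 1.08 (SD, n = 3 each), a log2 fold change of 1.07. Of 7 megakaryocyte and platelet genes 5 were lower and 2 higher, and their sum stood at 98.5% of WT. Of them 3 were lower with every library set to one sum. Of 5 tested dendritic cell genes 4 were lower, with a sum at 64.3% of WT, and of 7 stromal genes 2 were tested, 1 lower and 1 higher, and 4 were below 0.1 in every library. Vwf, an endothelial and platelet gene, rose from 4.14 to 14.8 (log2 fold change 1.63), the largest rise of the endothelial list on the log2(level + 1) scale, while Tie1 rose more by the ratio of its means (0.935 and 4.24).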
